A study of Mus musculus with 10 samples.

Results

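The MITF and TFE transcription factor family was described across 10 RNA sequencing libraries of cultured mouse neural tube explants. Its members were taken by gene name, and all 4 (Mitf, Tfeb, Tfec and Tfe3) were found among the 42465 gene models of the table. Explants from E9.5 embryos, which contained neural crest cells, were either WT or Ednrb-/-, and each genotype had 5 biological replicates. All were kept for 4 days in DMEM with serum at 10%. EDN3, the ligand of the receptor that Ednrb encodes, was added at 20 nM, so the ligand was present for WT and Ednrb-/- explants alike. The labels used here give no strain, allele or pooling of explants, and each library is a mixture of neural tube, neural crest and other cells. The title and design text name melanoblast proliferation as the question; melanoblasts are the precursors of pigment cells.

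The family consists of basic helix-loop-helix leucine zipper proteins that bind DNA as dimers with themselves or with each other, at E-box and M-box motifs. MITF, made in several forms from alternative starts, is the factor that specifies and maintains pigment cells, downstream of SOX10, PAX3, WNT and cyclic AMP signals. TFEB and TFE3 are widely expressed and switch on lysosome and autophagy genes when mTORC1 and the Rag GTPases no longer hold them in the cytoplasm, so that their activity is set largely by location and phosphorylation rather than by transcript level. TFEC is best known from macrophages. RNA levels, as measured here, do not show where the proteins are or whether they are active.

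Levels are given as FPKM, reads scaled by gene length and library depth, so that members can be compared with each other. The reads behind them numbered 13022266 to 19532570 a library. Ednrb, the gene named in the genotype, held 43.8 to 60.7 FPKM in WT libraries and 2.34 to 11.7 in Ednrb-/- ones. A fold change is the mean log2(FPKM + 0.5) of Ednrb-/- less that of WT, which understates the change of low genes, and a gene rose or fell where limma's adjusted p over the 15156 genes tested was under 0.05. By that rule 19.5% of genes changed, 13.0% downward and 6.53% upward, with a median log2 fold change of 0.0048. The markers of melanoblasts and of smooth muscle differed widely among libraries of the same genotype and are given beside the results below.

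The sequence in front of each start of Mitf is shown because the gene has separate promoters and because several of its known regulators were lower in Ednrb-/- explants. RefSeq lists 3 starts for Mitf, 3 for Tfeb, 2 for Tfe3 and 1 for Tfec on GRCm38.p6, another build than that of the table. The most 3′ start of Mitf is that of the melanocyte form. The letters searched on both strands were TGACGTCA, the full cyclic AMP response element; CTTTGAT, a match to LEF and TCF factors; ACAAAG, a match to SOX factors; and the E-box cores CACGTG and CATGTG. In the windows of Mitf matches to these 5 are in capitals. Each window is 250 bases and ends just before the start, and a match is a description of the letters only.
Mitf, most 5′ start, chr6:97806808-97807057, plus strand: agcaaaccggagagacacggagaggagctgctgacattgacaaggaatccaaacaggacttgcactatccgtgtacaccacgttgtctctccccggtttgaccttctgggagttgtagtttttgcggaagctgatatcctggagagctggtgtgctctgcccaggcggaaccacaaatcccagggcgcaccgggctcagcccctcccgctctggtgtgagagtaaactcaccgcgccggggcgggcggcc
Mitf, middle start, chr6:97929567-97929816, plus strand: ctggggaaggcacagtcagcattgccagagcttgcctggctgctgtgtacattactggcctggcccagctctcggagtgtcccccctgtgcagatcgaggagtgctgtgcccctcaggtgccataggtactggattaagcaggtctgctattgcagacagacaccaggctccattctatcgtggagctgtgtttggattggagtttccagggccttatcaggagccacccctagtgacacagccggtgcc
Mitf, most 3′ start, chr6:97991533-97991782, plus strand: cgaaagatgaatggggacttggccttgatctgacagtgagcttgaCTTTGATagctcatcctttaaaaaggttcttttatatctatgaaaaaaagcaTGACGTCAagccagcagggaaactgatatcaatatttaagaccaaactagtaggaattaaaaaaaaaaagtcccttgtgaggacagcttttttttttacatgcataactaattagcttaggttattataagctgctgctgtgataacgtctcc
Only the most 3′ window of Mitf held any of the 5 motifs among the 9 windows of the family. It held TGACGTCA once, at -153 to -146 from the start, and CTTTGAT once, at -205 to -199. Of all 32851 RefSeq windows of this length, 1.55% held the first and 3.21% the second. The deposited table sums all starts of a gene, so the forms of Mitf could not be separated.

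Mitf was the member that fell. Its FPKM in WT replicates 1 to 5 were 5.12, 2.53, 2.25, 1.94 and 5.88, on 197 to 523 reads a library. Those of Ednrb-/- replicates 1 to 5 were 0.709, 0.285, 0.485, 0.833 and 0.304, on 23 to 87 reads. WT replicates 1 and 5 stood above the other 3 WT libraries, and the highest Ednrb-/- library lay below the lowest WT library. Group means were 3.55 ± 1.82 and 0.523 ± 0.243 FPKM (SD of 5 libraries each), a ratio of 6.78. Limma put the log2 fold change at -1.90 (standard error 0.30; 95% interval -2.56 to -1.25; Benjamini-Hochberg adjusted p = 0.00322). It passed in all 20 alternatives, which gave -2.63 to -1.50 and adjusted p values of 0.00210 to 0.0143. In bulk RNA, fewer cells of a type and less RNA per cell cannot be told apart. Mitf is MGP_C57BL6NJ_G0031517, on the plus strand of chromosome 6, 102196940 to 102420658. All positions of members are those of the deposited table, whose identifiers name the C57BL/6NJ assembly.

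Tfe3 had the highest level of the family in all 10 libraries, with Mitf close to it in WT replicates 1 and 5. Its FPKM were 5.55, 5.89, 6.53, 6.18 and 6.42 in WT replicates 1 to 5, against 5.21, 3.61, 4.72, 5.47 and 4.20 for Ednrb-/- replicates 1 to 5. The groups did not overlap, though the lowest WT and the highest Ednrb-/- library were close. Group means were 6.11 ± 0.398 and 4.64 ± 0.755 FPKM (SD of 5 libraries each), on 436 to 955 reads a library. The log2 fold change of -0.37 (standard error 0.12; 95% interval -0.64 to -0.11) missed the threshold by limma, with a Benjamini-Hochberg adjusted p of 0.0507. Tfe3 lay at the threshold. It passed without Ednrb-/- replicate 1 (0.0476) or replicate 4 (0.0300) and reached 0.138 under quantile normalization. An exact two-sided permutation of the mean log2 difference, unadjusted, gave p = 0.00794, the smallest that 5 against 5 libraries allow. Tfe3 is MGP_C57BL6NJ_G0036021, on the plus strand of chromosome X, 2466038 to 2478678.

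Tfeb was present at a low level in WT and Ednrb-/- explants. Its FPKM were 0.664, 0.684, 0.729, 0.733 and 0.836 in WT replicates 1 to 5, against 0.615, 0.636, 0.337, 0.542 and 0.425 for Ednrb-/- replicates 1 to 5. The groups did not overlap, and the gap between them was small. Group means were 0.729 ± 0.0668 and 0.511 ± 0.128 FPKM (SD of 5 libraries each), from only 35 to 69 reads a library. Tfeb did not pass by limma (log2 fold change -0.29, standard error 0.17, 95% interval -0.67 to 0.09, adjusted p = 0.276), while the exact two-sided permutation p, unadjusted, was 0.00794. Under quantile normalization the log2 fold change was -0.013 (limma, adjusted p = 0.968). Tfeb is MGP_C57BL6NJ_G0024263, on the plus strand of chromosome 17, 50995120 to 51060064.

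Tfec was near the limit of detection and did not pass the filter of 0.5 FPKM in at least 5 libraries, so it was not in the fit over all genes. Its reads numbered 10, 1, 6, 6 and 3 in WT replicates 1 to 5 and 0, 0, 0, 4 and 0 in Ednrb-/- replicates 1 to 5. The highest level was 0.108 FPKM, in WT replicate 1, and Ednrb-/- replicate 4, at 0.0439 FPKM, overlapped the WT range. Summed over libraries, 26 reads of 78499973 in WT and 4 reads of 83073433 in Ednrb-/- gave a ratio of 6.88 with an exact (Clopper-Pearson) 95% interval of 2.39 to 27.1, which covers counting error only. On the voom scale of recovered reads, without a limma fit, the difference between its group means was -2.67. That value rests on the offset added before taking logs, since most Ednrb-/- libraries had 0 reads. The exact two-sided permutation p of the mean log2(FPKM + 0.5) difference, unadjusted, was 0.0238, and it rose above 0.05 on leaving out WT replicate 1, 3 or 4 (0.0635 each) or without Ednrb-/- replicate 1, 2, 3 or 5 (0.0556 each). A count of 0 in a library of this depth does not show that the gene is off. Tfec is MGP_C57BL6NJ_G0030903, on the minus strand of chromosome 6, 14497154 to 14565693. Only the model of Mitf was overlapped by another model, a pseudogene with 0 reads.

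**Figure D1:**
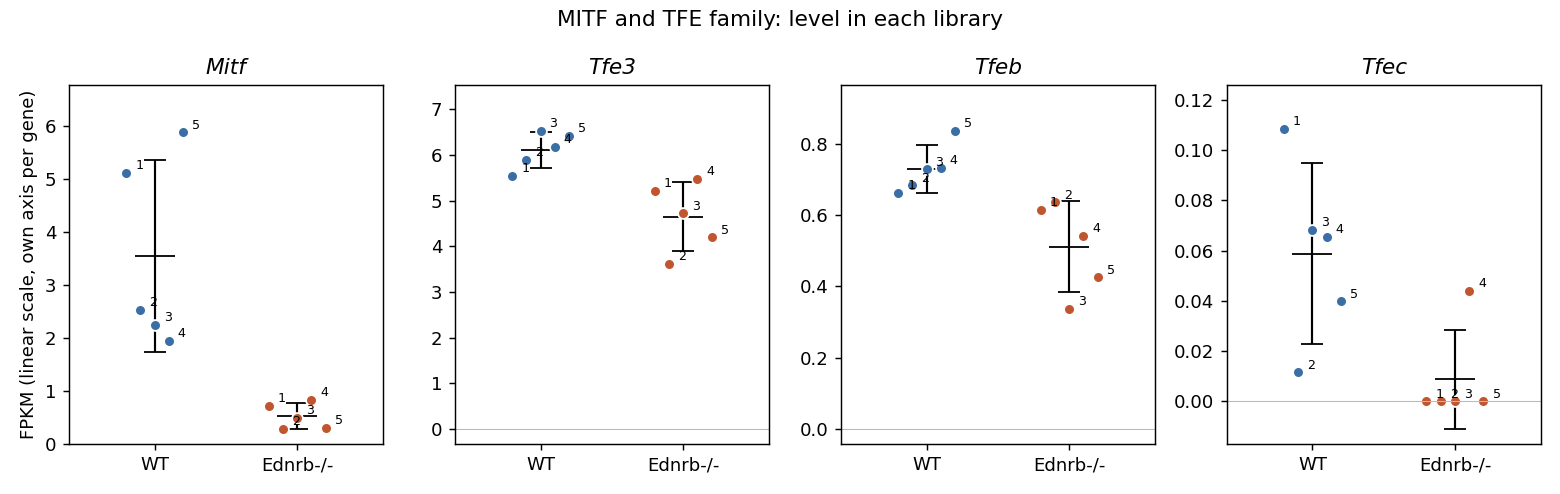
Level of Mitf, Tfe3, Tfeb and Tfec in FPKM on a linear scale, with a separate axis for each gene; points are libraries numbered by replicate, horizontal lines are means and error bars are SD over 5 libraries. Mitf lay between 1.94 and 5.88 FPKM in WT and between 0.285 and 0.833 FPKM in Ednrb-/- libraries, while Tfe3 and Tfeb groups were separated by small gaps and Tfec was at 0 in 4 Ednrb-/- libraries.

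Of the 3 members tested, 1 fell and 0 rose (limma; at an unadjusted p under 0.05, 2 were lower and 0 higher, and by limma voom on recovered reads 2 fell and 0 rose), against 13.0% of all genes falling. In all 3 the groups did not overlap, with Ednrb-/- lower, where 8.44% of all genes tested showed this. Mitf changed more than Tfe3 or Tfeb. The per-library log2 difference between Mitf and Tfe3 went from a mean of -0.82 in WT to -2.35 in Ednrb-/-, a shift of -1.53. Against Tfeb the shift was -1.61 and against Tfec -1.77. For each of the 3 the two-sided exact permutation p was 0.00794, the lowest that can be reached, and 0.0132 adjusted over the 5 such differences tested. The shift against Tfec rests on the pseudocount: on the voom scale of recovered reads it was -0.014 (exact permutation p = 1).

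The make-up of the family's transcripts is given as a description, with no test. Mitf made up 44.8, 27.8, 23.5, 21.8 and 44.6% of the summed FPKM of the 4 genes in WT replicates 1 to 5 and 10.9, 6.28, 8.74, 12.1 and 6.16% in Ednrb-/- replicates 1 to 5. Tfe3 made up 48.5 to 69.3% in WT and 79.4 to 85.2% in Ednrb-/- libraries. Tfeb took 5.80 to 8.22% in WT and 6.08 to 14.0% in Ednrb-/- libraries, ranges that overlap. The sum of the family was 8.92 to 13.2 FPKM in WT libraries and 4.54 to 6.89 in Ednrb-/- ones.

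**Figure D2:**
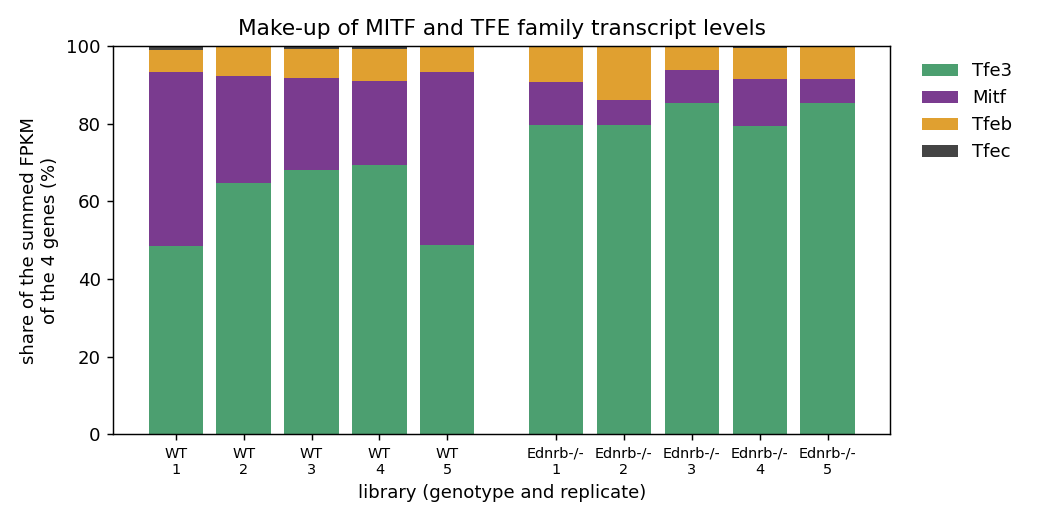
Share of each member in the summed FPKM of the 4 genes, in percent, for each of the 10 libraries. Mitf (purple) took 21.8 to 44.8% in WT and 6.16 to 12.1% in Ednrb-/- libraries, and Tfe3 (green) filled most of the rest.

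In the list taken as regulators of Mitf transcription, Sox10, Snai2, Tcf7, Lef1, Pax3 and Foxd3 fell. These were 6 of 18 genes tested in the list, and 0 rose, beside 13.0% lower and 6.53% higher over all genes (at an unadjusted p under 0.05, 7 were lower and 3 higher, and by limma voom 7 fell and 1 rose), with a median log2 fold change of -0.18. The count of changed genes ran from 4 to 8 as libraries were left out in turn. Sox10, the crest factor that activates Mitf, held 23.7, 32.2, 26.4, 15.8 and 48.4 FPKM in WT replicates 1 to 5. In Ednrb-/- replicates 1 to 5 the values were 7.09, 3.82, 2.68, 6.77 and 2.04 FPKM. It was lower in every Ednrb-/- library than in any WT library, and its log2 fold change was -2.62 (standard error 0.35; limma, adjusted p = 0.00276). WT replicate 1, second to replicate 5 in Mitf, was second to lowest of the WT libraries in Sox10. The Mitf to Sox10 difference moved by 0.72 toward Mitf and did not pass (exact permutation p = 0.0714, equal when adjusted over the 5 differences). It passed without WT replicate 1 (0.92, exact permutation p = 0.0159), with a pseudocount of 1 and after quantile normalization. The shift depends on the pseudocount, which shrinks the change of Mitf more, the lower of the 2 genes. Mean FPKM went from 3.55 to 0.523 for Mitf and from 29.3 to 4.48 for Sox10. The shift therefore does not show that Sox10 fell more than Mitf.

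Lef1 and Tcf7 encode nuclear partners of beta-catenin, whose own gene Ctnnb1 did not pass (limma, adjusted p = 0.550). Lef1 held 0.793 to 1.27 FPKM in WT libraries and 0 to 0.517 in Ednrb-/- ones (limma, adjusted p = 0.00655). Tcf7 went from 5.40 ± 0.597 to 1.80 ± 0.958 FPKM (mean ± SD of 5 libraries; adjusted p by limma 0.00408), and the groups of these 2 genes did not overlap. Snai2, a crest factor of migrating cells, fell from 7.69 ± 2.96 to 1.18 ± 0.910 FPKM (limma, adjusted p = 0.00333). Whether Snai2 acts above or below Mitf was not tested. Pax3, which activates Mitf together with Sox10, changed less. It held 13.3 to 16.5 FPKM in WT libraries and 6.18 to 14.1 in Ednrb-/- ones, where replicate 1 overlapped the WT range. Its log2 fold change was -0.70 (limma, adjusted p = 0.0223), which missed the threshold without WT replicate 3 (0.0536) or 4 (0.0515) or without Ednrb-/- replicate 2 (0.0512) or 5 (0.0507). Foxd3, a crest factor that represses Mitf, had a log2 fold change of -0.65 (limma, adjusted p = 0.0273), which was lost without WT replicate 2 (0.0509), 3 (0.0518) or 5 (0.0679) and without Ednrb-/- replicate 2 (0.0623), 3 (0.0678) or 5 (0.0625). The crest genes Tfap2a, Tfap2b, Sox9 and Zeb2 of the same list did not pass (limma, adjusted p = 0.804, 0.481, 0.746 and 0.0573).

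Pigment cell targets of MITF fell in most of the genes that could be tested. Of 24 genes, 17 passed the filter, 10 fell and 0 rose (at an unadjusted p under 0.05, 12 were lower and 0 higher, and by limma voom 10 fell and 0 rose), with a median log2 fold change of -0.82. The other 7 (Tyr, Tyrp1, Slc45a2, Oca2, Gpr143, Trpm1 and Mc1r) were too low to enter. Genes that enter only through their WT level have to differ, so the count does not describe the list as a whole. Over all genes tested 13.0% fell and 6.53% rose, with a median log2 fold change of 0.0048. Pmel, the fibril protein of melanosomes, held 73.1, 41.0, 9.23, 8.78 and 62.4 FPKM in WT replicates 1 to 5 and 0.256 to 1.44 FPKM in Ednrb-/- libraries. Dct, a melanin synthesis enzyme, held 25.6, 9.55, 2.25, 2.16 and 11.01 FPKM in WT libraries and 0.0815 to 2.03 in Ednrb-/- ones (limma, adjusted p = 0.0181, and 0.0632 by limma voom). Mlph, the melanosome tether, held 1.69 to 5.26 FPKM in WT libraries and at most 0.481 in Ednrb-/- ones. In WT replicates 3 and 4, where Pmel and Dct were lowest, Mitf was low too, but its range among WT libraries was narrower than theirs.

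Cdk2, a cell cycle kinase gene that also lies next to Pmel, held 20.3 to 27.3 FPKM in WT libraries and 10.98 to 14.9 in Ednrb-/- ones (limma, adjusted p = 0.00276). Tbx2, a T-box factor, went from 6.22 ± 2.20 to 1.84 ± 1.32 FPKM (mean ± SD of 5 libraries; adjusted p by limma 0.00839). Gpnmb, a melanosomal and lysosomal glycoprotein, held 26.3 to 63.5 FPKM in WT libraries and 0.489 to 7.20 in Ednrb-/- ones. The per-library log2 difference between Mitf and the mean of the 17 tested targets was -1.05 in WT and -1.53 in Ednrb-/-, a shift of -0.48. It is given as a description, since that mean holds genes such as Mlph and Rab27a that passed the filter through their WT level, beside 7 genes that did not pass the test.

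Promoter windows of 3 fallen targets are shown because they hold an E-box core, Dct and Mlph for pigment cells and Ctsd for lysosomes, the last chosen after its values were seen. The windows of 6 other fallen targets, Gpnmb, Cdk2, Hexa, Gusb, Cd63 and Wipi1, held neither core and are not shown. Capitals in these windows mark CACGTG and CATGTG only.
Dct, chr14:118052247-118052496, minus strand: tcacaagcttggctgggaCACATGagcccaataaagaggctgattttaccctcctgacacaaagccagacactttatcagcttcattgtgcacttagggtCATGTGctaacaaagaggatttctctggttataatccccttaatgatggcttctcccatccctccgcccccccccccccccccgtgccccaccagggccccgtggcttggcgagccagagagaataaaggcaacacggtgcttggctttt
Mlph, chr1:90914850-90915099, plus strand: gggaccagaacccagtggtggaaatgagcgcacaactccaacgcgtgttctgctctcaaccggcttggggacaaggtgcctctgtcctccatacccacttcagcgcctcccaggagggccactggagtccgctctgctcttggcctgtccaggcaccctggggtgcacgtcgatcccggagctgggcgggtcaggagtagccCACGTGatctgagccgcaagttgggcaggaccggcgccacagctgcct
Ctsd, chr7:142387828-142388077, minus strand: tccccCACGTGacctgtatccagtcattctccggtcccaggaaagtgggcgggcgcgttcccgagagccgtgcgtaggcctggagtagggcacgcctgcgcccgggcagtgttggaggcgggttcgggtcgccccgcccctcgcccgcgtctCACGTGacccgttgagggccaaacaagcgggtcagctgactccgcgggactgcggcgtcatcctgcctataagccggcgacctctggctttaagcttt
CATGTG, the core of the M-box, is in the Dct window on both strands, at -150 to -145 as written and at -232 to -227 on the other strand. CACGTG is in the Mlph window at -48 to -43 and in the Ctsd window at -245 to -240 and -98 to -93. Of all RefSeq windows 6.02% held CACGTG and 12.3% held CATGTG. In the list of pigment cell targets, 5 and 8 of 20 windows held them, and in the lysosomal list 12 and 4 of 33. Among lysosomal genes tested and with a window, 7 of the 16 that fell and 5 of the 13 others held CACGTG. Among pigment cell targets CACGTG was in 2 of the 6 that fell and 2 of the 6 others, and CATGTG in 1 of the 6 and 2 of the 6. The differences between these shares were not tested.

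Markers of melanoblasts were lower in Ednrb-/- libraries together with Mitf. The summed FPKM of the 8 markers was 150, 96.0, 45.8, 36.4 and 142 in WT replicates 1 to 5 and 10.6 to 14.6 in Ednrb-/- libraries. As for Mitf, WT replicates 1 and 5 were highest and replicate 4 lowest in WT. Of 5 melanoblast markers tested 4 fell, while Kit, the receptor that melanoblasts need, which other cells of the neural tube also make, held 7.53 ± 1.85 and 5.67 ± 1.37 FPKM (mean ± SD of 5 libraries; adjusted p by limma 0.218). Schwann cell precursor markers moved as well, 6 of 7 tested genes falling and 1 rising; Sox10 is in both marker lists and among the regulators, and Pmel, Mlana and Dct are also pigment cell targets. Of 9 neuron markers tested 8 rose, and of 10 neural tube progenitor markers 3 fell and 0 rose, beside 13.0% lower and 6.53% higher over all genes. With the replicate block 5 neuron markers changed, and 6 progenitor markers did without WT replicate 2. The part of these cell types in the fall of Mitf was not tested.

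After removal of each genotype's mean, the genes whose level most resembled that of Mitf over the 10 libraries included 2 pigment genes. Among 12200 protein-coding genes, 4 of the 5 with the highest Pearson r are given here. They were Rab27a (0.89), the melanosome transport GTPase, Mlana (0.88), a melanosome protein, Cdh19 (0.88), a cadherin of Schwann cell precursors, and Pnma1 (0.88). Spearman's rho was 0.98, 0.85, 0.76 and 0.78 in the same order. Without WT replicates 1 and 5, the 2 libraries farthest from the median of Mitf, r was 0.84, 0.84, 0.84 and 0.82. Libraries share depth and cell make-up in all genes, and these values only describe. Sox10 had r = 0.65 and Dct r = 0.44, which was 0.069 without those 2 libraries. Pax3 had r = -0.10.

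Tfe3 and Tfeb resembled other sets of genes. For Tfe3 the 5 highest r values were those of Orai3 (0.96), a calcium channel gene, Myo5b (0.96), a motor gene, Rab34 (0.95), a GTPase gene, Syngr2 (0.95) and Nckipsd (0.94), with rho between 0.88 and 0.98 and r between 0.86 and 0.95 without Ednrb-/- replicates 2 and 5. For Tfeb they were Cpped1 (0.95), Ddx56 (0.94), Fam212a (0.93), Slc43a3 (0.92) and Rgl1 (0.91), with rho between 0.84 and 0.95 and r between 0.78 and 0.93 without Ednrb-/- replicates 3 and 5. With 10 libraries and 12200 genes compared, the highest values are high by selection.

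Lysosomal target genes of TFEB and TFE3 were lower in many cases. Of 40 genes in the list, 39 were found and 38 tested; 19 fell and 2 rose (limma), with a median log2 fold change of -0.46 beside 0.0048 over all genes, and against 13.0% and 6.53% of all genes. The count of changed genes ran from 14 to 23 as libraries were left out in turn. Hexa, a subunit of the lysosomal hexosaminidase, held 65.4, 38.3, 66.5, 63.2 and 62.2 FPKM in WT replicates 1 to 5. In Ednrb-/- replicates 1 to 5 it held 28.6, 26.8, 30.9, 30.7 and 23.7 FPKM. WT replicate 2 was the lowest WT library and still above every Ednrb-/- library. Wipi1, an autophagosome protein, fell by 1.29 on the log2 scale, Galns and Gusb, which degrade matrix glycans, by 1.17 and 1.15, the tetraspanin gene Cd63 by 1.11 and the protease gene Ctsb by 0.83 (limma, adjusted p of 0.00276 to 0.00660 over these genes and Hexa). The 2 that rose, named after their values were seen, encode proton pump subunits. Atp6v1b2 had a log2 fold change of 0.28 (limma, adjusted p = 0.0131) and Atp6v1h one of 0.30 (limma, adjusted p = 0.0426), lost without WT replicate 2 (0.0723), 3 (0.0995), 4 (0.0661) or 5 (0.0931) or without Ednrb-/- replicate 2 (0.0805), 3 (0.0815) or 5 (0.0927).

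The order of WT libraries in this list was not that of Mitf. Its summed FPKM was 2210, 1642, 2398, 2350 and 2199 in WT replicates 1 to 5. In Ednrb-/- libraries it was 1523 to 1699, so by this sum WT replicate 2 lay within the Ednrb-/- range. The mean log2 level of the 38 genes tested, which weighs genes more evenly, was 4.20 to 4.41 in Ednrb-/- libraries. It was 4.76, 4.44, 4.95, 4.87 and 4.86 in WT replicates 1 to 5, which puts replicate 2 just above the Ednrb-/- range. The 10 smooth muscle markers summed to 1341, 322, 2465, 2076 and 1496 FPKM in the same WT libraries and 44.8 to 278 FPKM in Ednrb-/- libraries, again with WT replicate 2 lowest in WT. Where 13.0% of all genes tested fell, all 9 smooth muscle markers tested did. Their part in the lower lysosomal levels was not tested. Mitf itself was not lowest in WT replicate 2 but in replicate 4.

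**Figure D3:**
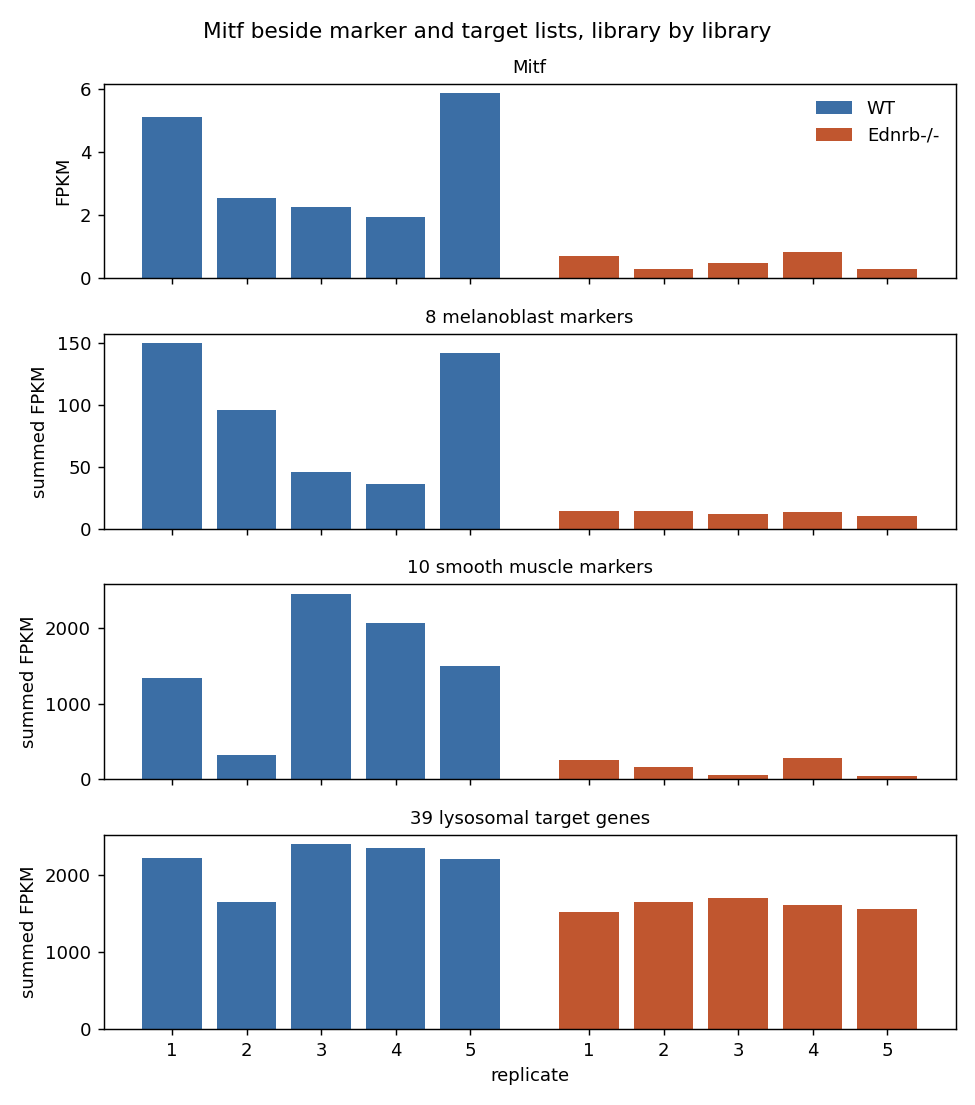
Mitf in FPKM and the summed FPKM of 8 melanoblast markers, 10 smooth muscle markers and 39 lysosomal target genes, as bars for each library from 0. Mitf and the melanoblast markers were highest in WT replicates 1 and 5, whereas smooth muscle markers and lysosomal genes were highest in WT replicates 3 and 4 and, among WT libraries, lowest in replicate 2.

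FLCN and its FNIP partners act with RagC and RagD on where in the cell TFEB and TFE3 are held. RRAGD is itself a target of the family. Of the 5 genes 0 passed by limma (1 at an unadjusted p under 0.05, 0 by limma voom, 1 with array weights), where 19.5% of all genes changed, so that 0 of 5 is no result about the list. It had a median log2 fold change of -0.047. Flcn held 17.3 ± 2.07 and 17.4 ± 2.29 FPKM in WT and Ednrb-/- libraries and Rragd 25.6 ± 4.88 and 28.2 ± 3.15 FPKM (SD of 5 libraries each). Rragc, the lowest p of the 5, held 36.1 ± 4.65 and 29.9 ± 3.63 FPKM (limma, adjusted p = 0.115).

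Among kinases, phosphatases and scaffolds that set the location of the proteins few genes were called, a count that is no result about the list. Of 35 genes tested 1 fell and 3 rose (limma), 11.4% of the list beside 19.5% of all genes, with a median log2 fold change of 0.047. As libraries were left out in turn the count ran from 1 to 5, being 1 without WT replicate 3 or 4, 2 without WT replicate 5 or Ednrb-/- replicate 5, and 0 under the replicate block. Ppp3cb, a catalytic subunit of calcineurin, which releases TFEB, went from 32.7 ± 0.876 to 39.97 ± 2.32 FPKM (mean ± SD of 5 libraries; adjusted p by limma 0.0123), and its groups did not overlap. Akt1, a kinase gene, fell by 0.28 on the log2 scale (limma, adjusted p = 0.0236), and its groups did not overlap. Rragb, one of the Rag GTPase genes, rose by 0.51 (limma, adjusted p = 0.0410), with overlapping groups. Akt1 missed the threshold without WT replicate 3 (0.0538), 4 (0.0629) or 5 (0.0545) or without Ednrb-/- replicate 5 (0.0623). Rragb missed it without WT replicate 3 (0.101), 4 (0.0968) or 5 (0.0777) or without Ednrb-/- replicate 2 (0.0815), 3 (0.0872) or 5 (0.0825).

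Other factors of the bHLH leucine zipper class that bind E-boxes included Myc, which fell, and Mxi1, which rose. Of 16 tested 1 fell and 1 rose (limma), 12.5% beside 19.5% of all genes, with a median log2 fold change of 0.078. The counts of changed genes were 4 without WT replicate 2 and 4 with array weights. Myc, the growth regulator, went from 14.2 ± 3.72 to 8.16 ± 0.889 FPKM, and Mxi1, which opposes it at E-boxes, from 17.2 ± 1.93 to 23.6 ± 2.55 FPKM (mean ± SD of 5 libraries; adjusted p by limma 0.00814 and 0.00963). Their groups did not overlap. Mycn and Mycl did not pass (limma, adjusted p = 0.119 and 0.150).

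**Figure D4:**
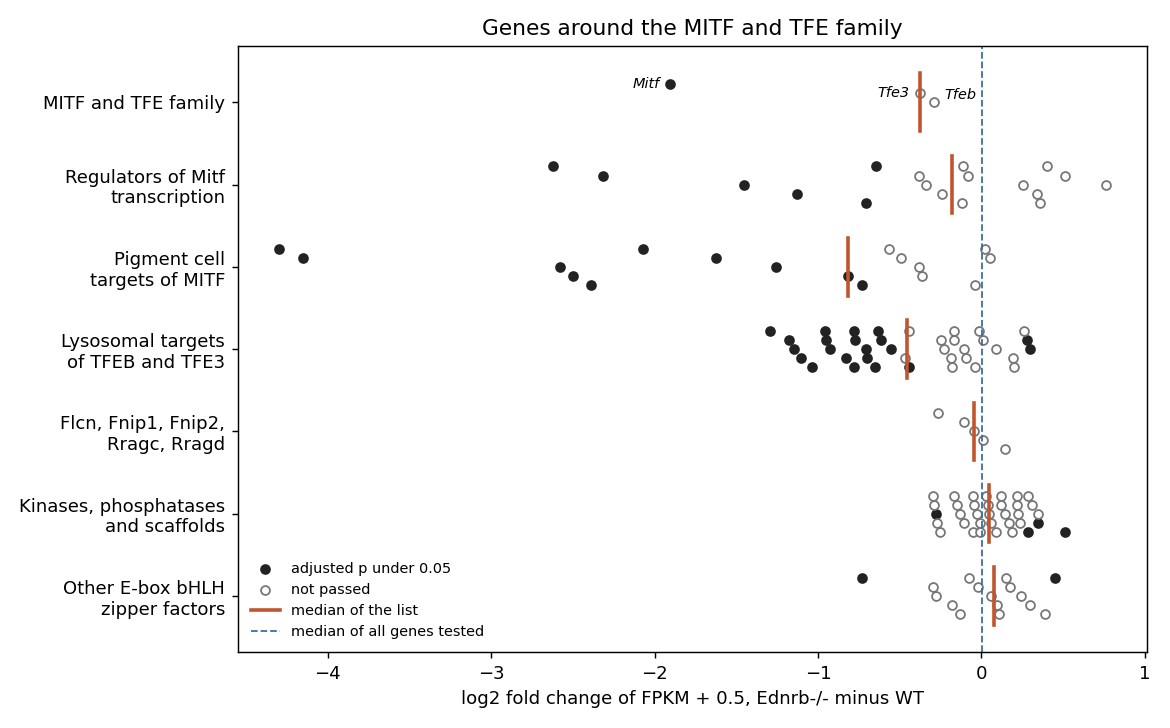
Log2 fold change of FPKM + 0.5, Ednrb-/- minus WT, of each tested gene (points; filled where the limma adjusted p was under 0.05) in the family and 6 lists around it, with the list medians (orange) and the median of all genes tested (dashed). Mitf stands at -1.90, away from Tfe3 at -0.37 and Tfeb at -0.29. List medians run from -0.82 for pigment cell targets to 0.078 for other E-box factors.

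Markers of other cell types that use the family were mixed, with some at 0 and others measurable. In the retinal pigment epithelium, which depends on Mitf, 6 markers were found in the table and 0 passed the filter. Their sum was 0.448 to 0.588 FPKM in WT libraries and 0.184 to 0.691 in Ednrb-/- ones. Of 16 macrophage and osteoclast markers only Cd68 and Ctsk passed the filter, with 0.174 to 2.18 and 0.427 to 1.70 FPKM over the 10 libraries. Acp5, below the filter, held 0.321 to 1.82 FPKM in WT libraries and 0 to 0.762 in Ednrb-/- ones. C1qa, Tyrobp and Ocstamp were listed at 0 in all libraries, and the leukocyte gene Ptprc reached 0.0304 FPKM at most. Of 8 mast cell markers Cpa3, Mcpt4, Cma1 and Fcer1a were listed at 0 in all libraries, and Ms4a2 and Gata2 passed the filter. Gata2, a factor that other cells also make, held 2.15 to 3.91 FPKM in WT libraries and 2.24 to 4.98 in Ednrb-/- ones. Ms4a2, a subunit of the mast cell IgE receptor, held 2.25 ± 1.48 FPKM in WT libraries and 0.775 ± 0.692 in Ednrb-/- ones (mean ± SD of 5 libraries; adjusted p by limma 0.126). The part of such cells in the levels of the family was not tested.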

How the data were processed

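The values are FPKM as deposited by the authors, 1 column per library; per the submitters' processing notes fastp, HISAT2 2.0.5 and featureCounts 1.5.0-p3 were used with mm10, while the gene identifiers in the file are of the C57BL/6NJ assembly, so coordinates were not converted. The strand setting was not given in the sources used here. Columns were matched to samples by genotype and replicate number in the titles. With the deposited gene lengths, the FPKM gave whole reads for 100% of values within 0.01 of a read. Genes with at least 0.5 FPKM in at least 5 of the 10 libraries were fitted by limma 3.58.1 in R 4.3.3, on log2(FPKM + 0.5) with a trended prior variance and no covariate; p values were adjusted over the 15156 genes (Benjamini-Hochberg). Single values were tested by exact permutation of the libraries. The method was tested on simulated data. The labels call the libraries biological replicates without naming embryos, so p values measure the spread between these libraries. The members and gene lists were chosen with earlier results of these data known, and no p is adjusted over a list. 5 list symbols (Map1lc3b, Ywhaz, Usf2, Rdh5 and Map2) had no single matching row. Genes named are the members, up to 6 of each list with the lowest p, and the 5 genes most like each tested member, with exceptions marked where they stand; 2 genes that this rule names are not reported here. Promoter sequences are from RefSeq, GRCm38.p6, and were found for all 4 members. Alternatives covered the pseudocount, filter, scaling, variance model, array weights, the replicate block and each library left out.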

Additional observations from a re-analysis of the deposited data

Results flagged for a closer look

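Tfec in Ednrb-/- replicate 4 stood apart from the other libraries of its genotype, at 0.0439 FPKM on 4 reads where the other 4 were at 0. The rule that singled it out marks any value above 0 where the other 4 are at 0. Its usual chance rate of about 1 in 20 groups therefore does not apply here.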

How the results depend on the processing

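Mitf fell under all 20 alternatives. Tfe3, at an adjusted p of 0.0507, passed with a pseudocount of 0.1 (log2 fold change -0.40), a filter of 1 FPKM (-0.37), no trend (-0.37), limma voom (-0.36) and array weights (-0.37), and ranged from -0.43 to -0.30 as libraries were left out. Tfec did not pass in a limma fit without a filter (-0.13, adjusted p = 0.170) and ranged from -0.16 to -0.10 as libraries were left out. Mitf minus Sox10 passed with a pseudocount of 1 (0.98) and quantile normalization (0.81), with 0.59 to 0.92 as libraries were left out. Mitf minus Tfec was -0.014 on the voom scale of recovered reads, without a limma fit, and its main value rests on the pseudocount. No cause of the other moves between settings was tested. Of 2956 genes changed, 1898 to 3240 were found with libraries left out (1898 without WT replicate 3, 1912 without replicate 4, 1902 without replicate 5). Of 990 genes higher, 511 to 1151 were found (513 without WT replicate 3, 521 without 4, 511 without 5, 588 without Ednrb-/- replicate 3, 561 without 5), 659 with no filter, 1684 with array weights and 1603 with quantile normalization, which gave 1730 lower. With the replicate block 1877 genes changed and 419 were higher, and Mitf passed (adjusted p = 0.0143), while Ppp3cb (0.0655), Akt1 (0.105), Rragb (0.108), Atp6v1b2 (0.0716), Atp6v1h (0.144), Pax3 (0.0550) and Foxd3 (0.0539) did not. Same-numbered libraries correlated at -0.16 to 0.15, so numbers were not taken as pairs. The block was not run for differences between Mitf and other genes. Tfeb and Tfec rest on few reads, which limits what can be detected.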
